A study of Drosophila melanogaster with 4 samples.

Results

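Head-to-head gene pairs are neighbouring genes on opposite strands that are transcribed away from each other, so that 1 stretch of DNA holds both promoters. Of 3491 regions bound by the transcription factor Chinmo in at least 2 of 4 libraries, 622 (17.8%) lay at such a promoter, and they are described here. A region was formed by joining peak summits whose windows of 100 bp on each side overlapped, and its centre is the median summit. It was taken as a head-to-head promoter region when its centre lay within 1000 bp of the transcription start sites (TSSs) of 2 different protein-coding genes on opposite strands, with the minus-strand TSS at the lower coordinate. Neither the height of a peak nor its sequence entered that choice. The other regions comprised 1749 at promoters with no such pair, called other promoter regions below, and 1120 away from promoters.

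The libraries came from chromatin immunoprecipitation and sequencing of whole Drosophila melanogaster embryos of 6 to 24 h that carried a transgene for Chinmo fused to enhanced GFP. All 4 are labelled as biological replicates of 1 group, replicates 1 to 4, with sonicated chromatin of 200 to 800 bp. The description names an antibody against GFP and the antibody field names chinmo, and the age field holds a number that cannot be the age of an embryo, so the age was taken from the source name. Control libraries were not analysed here, and no library lacked the fusion, so a background of the antibody or of open chromatin cannot be told apart from binding by the fusion. A whole embryo also holds many tissues, and strong binding in few cells cannot be told apart from weak binding in many. The thresholded lists held 3435, 4415, 2222 and 3038 summits for replicates 1 to 4 on the chromosome arms used. The peak lists carry no counts of reads, so the depth of the libraries is unknown.

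Chinmo has a BTB domain, through which such proteins bind each other, and zinc fingers that contact DNA, and it is known for its roles in the temporal identity of neurons and in stem cells. In flies, promoters shared by head-to-head genes often belong to genes used in most cells. Such promoters are known to carry the DNA replication-related element (DRE), TATCGATA, which the factor DREF binds, and its core CGATA, clusters of which the insulator protein BEAF-32 binds. TATA boxes are typical of a different class of promoters, those of genes with restricted expression, and GAGAG is the core of the sites of GAGA factor.

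The whole stretch between the start sites is printed for 8 pairs that were bound in all 4 libraries and have no annotated exon in the stretch, because the word CGATA had the largest difference between head-to-head and other promoter regions among the motifs searched. The first 5 are among the 15 regions of highest rank, that of eIF2gamma/Set shows 2 full DREs, and the last 2 show a full DRE and a single core in short stretches. CG9426/mRF1 was chosen for this after its values were seen. Capitals mark CGATA and its reverse complement TATCG, which merge to TATCGATA where a full DRE is present. All are the plus strand of dm6, so the minus-strand gene starts to the left of the first base and the plus-strand gene to the right of the last.
TrpRS/Vps16A, chr3R:9266905-9267018: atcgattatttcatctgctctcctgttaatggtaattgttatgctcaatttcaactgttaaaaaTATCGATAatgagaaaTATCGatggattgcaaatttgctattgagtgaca
Ube3a/CG7600, chr3L:11210584-11210785: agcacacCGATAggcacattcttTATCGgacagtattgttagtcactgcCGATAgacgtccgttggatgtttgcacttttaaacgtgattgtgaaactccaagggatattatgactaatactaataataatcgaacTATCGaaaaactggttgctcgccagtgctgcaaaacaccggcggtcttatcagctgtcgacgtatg
GlnRS/RIOK2, chr3R:25265722-25265843: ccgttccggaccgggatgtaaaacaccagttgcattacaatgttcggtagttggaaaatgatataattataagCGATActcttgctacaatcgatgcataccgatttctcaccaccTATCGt
Spps/CG13609, chr3R:24226935-24227022: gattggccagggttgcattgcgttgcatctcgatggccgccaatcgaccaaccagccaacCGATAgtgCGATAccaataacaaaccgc
PRL-1/EndoGI, chr2L:16257607-16257687: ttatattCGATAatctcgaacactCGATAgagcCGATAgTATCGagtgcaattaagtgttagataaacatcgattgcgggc
eIF2gamma/Set, chr3R:15263459-15263551: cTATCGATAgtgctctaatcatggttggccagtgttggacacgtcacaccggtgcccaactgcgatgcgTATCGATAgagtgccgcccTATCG
CG9426/mRF1, chr2L:13219924-13219978: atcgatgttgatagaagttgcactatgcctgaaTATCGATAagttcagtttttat
SmE/CG34132, chr2L:7885451-7885502: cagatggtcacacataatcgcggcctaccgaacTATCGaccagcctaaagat

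The 5 stretches from regions of highest rank hold 2 to 4 matches each, and that between eIF2gamma and Set holds 5, in which both strands of each full DRE are counted. In TrpRS/Vps16A the region centre was base 88 of the printed stretch, 3 bases beyond the second capital run. In PRL-1/EndoGI the centre was base 49, beyond the last of its matches by a few bases. In Ube3a/CG7600 it was base 37, between 2 matches.

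The 622 regions stood for 628 different gene pairs and 1195 genes, and 45 pairs had at least 2 regions. A single pair was in reach of 570 regions, and 52 regions had more than 1 pair within 1000 bp, at most 4. Where there were several, the pair with the smallest summed distance to the centre gave the position of the region. In 547 regions no other protein-coding TSS lay between the start sites of that pair. Counts of bound pairs and the gene lists below include every pair in reach. Arm 2L held 116 of the regions, 2R held 139, 3L 109, 3R 157 and X 99, and chromosome 4 held 2. Of the head-to-head pairs with TSSs up to 1000 bp apart, 22.0%, 24.3%, 21.2%, 23.3% and 24.6% were bound on those 5 arms.

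A minority of annotated head-to-head pairs had a region in 2 or more libraries. The share depends on the threshold, since 1580 pairs had a peak in the longest list deposited for the series, against 628 here. Of 3499 pairs with TSSs up to 2000 bp apart, 17.9% had a region within 1000 bp of both start sites. Of 2667 pairs with TSSs up to 1000 bp apart, 613 (23.0%) had one. Of the 5052 genes in pairs up to 1000 bp apart, 23.2% were in a bound pair, and over all 13945 protein-coding genes 18.8% had a region within 1000 bp of a TSS. These shares are the background for the counts of genes given below.

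The share of bound pairs lay between 18% and 27.7% up to 1000 bp between the start sites and was far lower beyond. It was 27.7% (95% Wilson interval, which covers counting error only, 23.7 to 32.2%) of 429 pairs with TSSs 1 to 100 bp apart, between 20.9% and 24.3% in the next 5 ranges and 18% (13.7 to 23.2%) of 250 pairs over 750 and up to 1000 bp apart. By single library, the pairs up to 100 bp apart had the highest share in replicates 1 and 3 (21.7% and 21.4%), and those over 400 and up to 500 bp apart in replicates 2 and 4 (30.7% and 27.3%). The pooled share was 3.22% of 404 pairs over 1000 and up to 1500 bp apart and 0.467% of 428 pairs over 1500 and up to 2000 bp apart. The zone within 1000 bp of both start sites narrows as they move apart, so a decline is built into the rule, and its part in these values was not tested. Among pairs up to 1000 bp apart, the median distance was 290 bp in 613 bound pairs and 305 bp in 2054 pairs with no region, and the quartiles overlapped widely (131 to 484 bp and 171 to 514 bp).

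**Figure D1:**
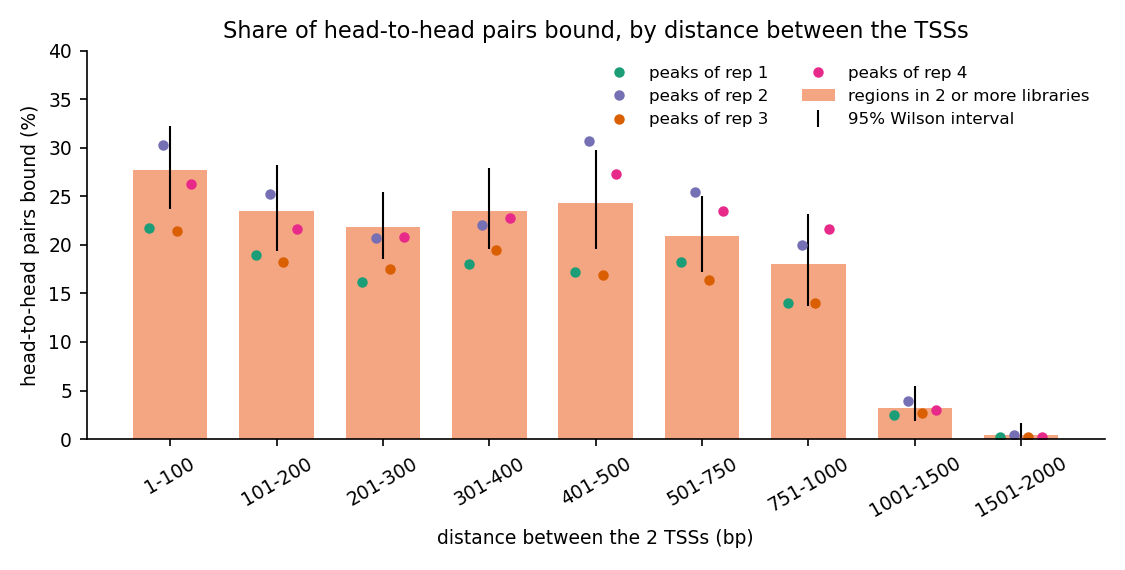
Percent of annotated head-to-head gene pairs that were bound (vertical axis) by the distance between their TSSs in bp (horizontal axis); bars are regions in 2 or more libraries with 95% Wilson intervals, and points are the peaks of each library taken alone. The bars lie between 18% and 27.7% up to 1000 bp and at 3.22% and 0.467% beyond it.

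Genes of head-to-head pairs had a summit within 1000 bp of a TSS more often than other genes in each library, and the classes were close to each other when a summit was counted for 1 gene only. In replicates 1 to 4, 20.7%, 27.1%, 19.7% and 25.3% of the 5052 genes of head-to-head pairs had one, against 13.6%, 17.2%, 9.50% and 13% of the other 8893 genes. Every value of the head-to-head genes was above every value of the other genes. The difference was 9.86 ± 2.16 percentage points (SD, n = 4 libraries), positive in 4 of 4 libraries, with p = 0.13 in an exact two-sided sign-flip permutation test, the smallest value that 4 libraries allow. When each summit was counted only for the gene of its nearest TSS, a count added after the data were seen, the shares were 12.2%, 16.0%, 11.2% and 14.6% of head-to-head genes, against 13.2%, 16.7%, 9.19% and 12.7% of other genes. That difference was 0.546 ± 1.67 points, positive in 2 of 4 libraries (exact p = 0.500). The first count credits a summit near both start sites to both genes of a pair, so an excess is built into it. The second count credits that summit to the nearer gene only. How far each rule sets the difference was not tested. The genes of head-to-head pairs had 1.47 annotated TSSs on average and the other genes 1.37.

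The centres lay at start sites and not in the middle of the shared stretch. Of the 622 centres, 398 (64.0%) were between the start sites, 114 were downstream of the minus-strand TSS and 110 were downstream of the plus-strand TSS. By single library, 58.9%, 58.2%, 67.2% and 66.0% of the summits at head-to-head promoters in replicates 1 to 4 were between the start sites. The strands were even, with 316 centres nearer to the minus-strand TSS, 304 nearer to the plus-strand TSS and 2 at equal distance. The median distance was 44.0 bp to the nearer TSS and 348 bp to the farther one, and 78.0% of centres were within 100 bp of the nearer TSS.

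Where the TSSs were over 200 and up to 1000 bp apart and the centre lay between them, which was so in 272 regions, 61.4% of centres were within 1 sixth of its length from either TSS. The central part of the stretch, as far from either end as it is long, held 13.2% of them. Centres within 100 bp of both start sites numbered 114. In the other promoter regions the median distance to the nearest TSS was 82.0 bp, and 71.6% were within 200 bp of it, against 90.0% of the head-to-head promoter regions. The share upstream of the nearest TSS was 64.5% in head-to-head promoter regions and 64.4% in other promoter regions. A head-to-head promoter offers 2 or more start sites within reach, so a shorter distance is in part built into the rule.

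**Figure D2:**
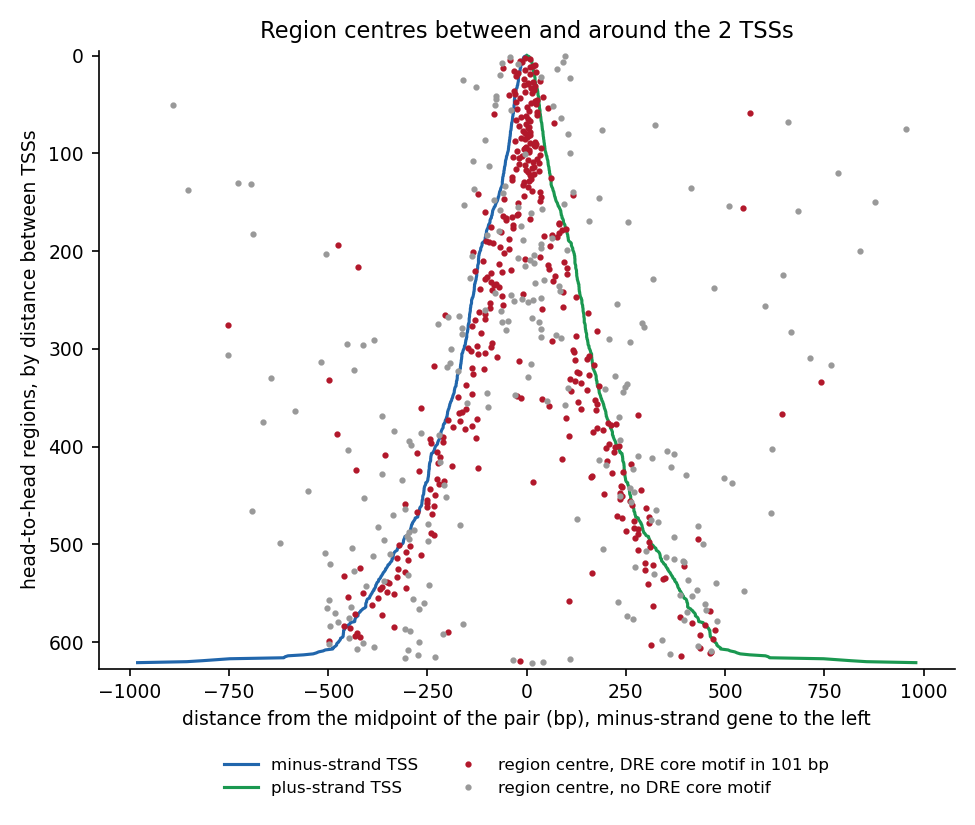
Centres of the 622 head-to-head promoter regions (points, 1 row each) relative to the midpoint of the gene pair in bp, with rows ordered by the distance between the TSSs and lines for the minus-strand and plus-strand TSSs. Points with the DRE core motif within 50 bp of the centre run along the start sites and mostly inside them.

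At the limit of 1000 bp, the last regions inside were those of NTPase/lilli, CheB38c/CG9331 and Or9a/Neb-cGP, whose farther TSS was 995, 994 and 992 bp from the centre. The first outside were those of Tig/Fic, Nprl3/upSET and CG11694/CG7483, at 1003, 1004 and 1006 bp. The mean rank percentile was 63.6, 31.2 and 76.9 in the regions inside and 14.8, 51.0 and 38.7 in those outside. The rank percentile places the deposited signal value of a peak within its own library's thresholded list, from 0 for the weakest to 100 for the strongest.

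Head-to-head promoter regions recurred about as often as other promoter regions over the 4 libraries as a whole. The difference between the classes was negative in replicates 1 and 2 and positive in replicates 3 and 4. Of the 622, 226 (36.3%, Wilson interval 32.6 to 40.2%) had a summit in all 4 libraries, 164 in 3 and 232 in 2. Of the other promoter regions 34.1% (31.9 to 36.4%) were in all 4, and of all 3491 regions 33.4% were. Replicates 1 to 4 listed 69.0%, 82.2%, 64.8% and 83.1% of the head-to-head promoter regions, against 78.8%, 90.5%, 53.6% and 74.6% of the other promoter regions.

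The differences were -9.87 and -8.30 percentage points in replicates 1 and 2 and 11.2 and 8.56 points in replicates 3 and 4. Their mean of 0.402 ± 11.0 points (SD, n = 4 libraries) did not pass the exact two-sided sign-flip permutation test (p = 0.875). Of all summits in a library, 14.7% and 15.2% were at head-to-head promoters in replicates 1 and 2, against 21.2% in each of replicates 3 and 4. The regions found only in replicates 1 and 2 numbered 66 of 622 head-to-head promoter regions (10.6%) and 303 of 1749 other promoter regions (17.3%). Those found only in replicates 3 and 4 numbered 53 (8.52%) and 62 (3.54%). Regions found only in replicates 2 and 4, across that division, numbered 57 (9.16%) and 157 (8.98%), so the libraries did not split cleanly. The labels give no batch, so what divides the replicates was not tested.

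The rank percentile showed the same division on a smaller scale. Head-to-head promoter regions averaged 54.1, 57.7, 57.6 and 57.8 in replicates 1 to 4, and other promoter regions 58.5, 61.5, 53.7 and 57.4. The mean difference was -0.960 ± 3.91 (SD, n = 4 libraries), positive in 2 of 4, with p = 0.750 in the exact sign-flip permutation test. A region missing from a thresholded list was mostly in that library's longer ranked list, with a summit within 100 bp for 86.5%, 77.5%, 73.5% and 84.8% of the missing head-to-head promoter regions. For missing other promoter regions these shares were 87.6%, 80.8%, 73.8% and 86.3%. The ranked lists held 39707, 27009, 30017 and 34066 summits, and how many matches arise by coincidence was not tested. A missing peak was therefore not read as absent binding.

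**Figure D3:**
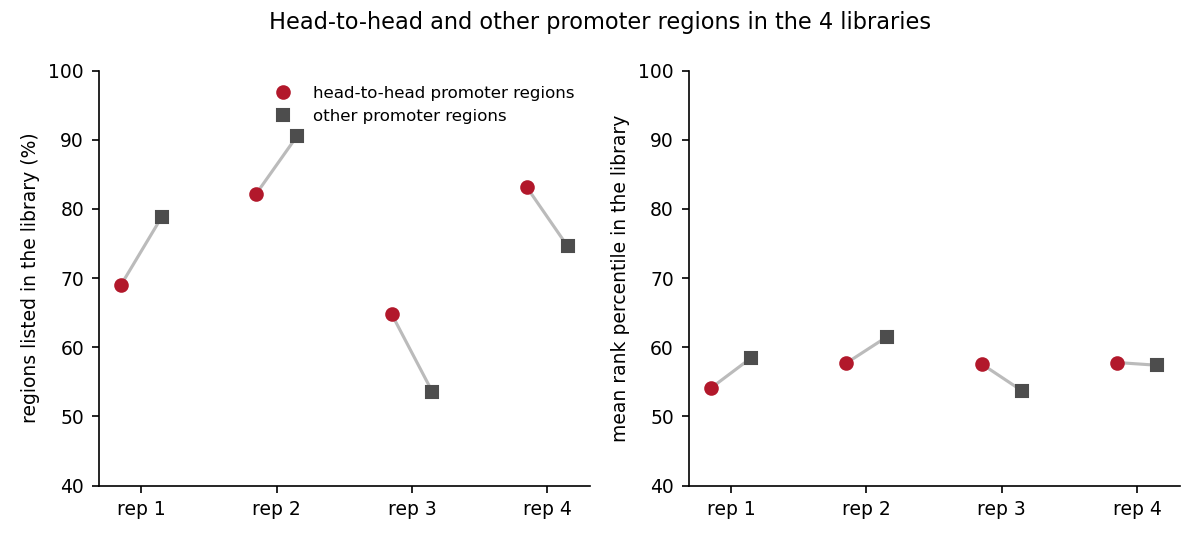
Left, percent of head-to-head promoter regions (circles) and of other promoter regions (squares) listed in each library; right, their mean rank percentile in that library (no unit), both axes starting at 40. Circles are below squares in replicates 1 and 2 and above them in replicates 3 and 4.

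The 15 regions of highest mean rank among the 226 in all 4 libraries had mean rank percentiles between 95.3 and 99.1, and no single library placed any of them below 91.8. In 13 of the 15 the centre was between the start sites, and 12 had CGATA within 50 bp of the centre. Over all 226 regions in all 4 libraries, 68.6% of centres were between the start sites and 70.8% had CGATA. The highest was between Sema1b, a semaphorin of axon guidance, and HPS4, a subunit of a complex in the traffic of lysosome-related organelles. It had rank percentiles of 99.8, 99.7, 97.7 and 99.3 in replicates 1 to 4 and no CGATA. TAF1C-like/MESK2 followed with 98.0, 98.5, 99.7 and 99.9. IntS6/Rtel1, an Integrator subunit and a DNA helicase, had 98.3, 98.0, 99.3 and 99.6, and its centre was 183 bp inside the minus-strand gene IntS6, measured from its TSS on the X chromosome.

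The group held 2 genes of aminoacyl-tRNA synthetases. TrpRS, which charges the tRNA of tryptophan, shares its promoter with Vps16A, a subunit of the complexes that tether vesicles to lysosomes. That region, chr3R:9266800-9267199, had rank percentiles of 97.7, 98.9, 96.8 and 98.0, and the stretch between them is 114 bp long. GlnRS, which charges the tRNA of glutamine, is paired with RIOK2, a kinase of small ribosomal subunit maturation. It had 99.3, 99.3, 94.9 and 96.1, higher in replicates 1 and 2 than in 3 and 4.

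Other pairs in the group joined genes of unlike function. Ube3a, a ubiquitin ligase, and CG7600 had 96.2, 99.0, 97.1 and 98.6. Hsp68, a heat shock protein, and SMC1, a subunit of cohesin, had 97.8, 95.5, 97.2 and 98.8, and there the centre was 53 bp upstream of the SMC1 TSS and 924 bp upstream of that of Hsp68. Usp5, which disassembles ubiquitin chains, and BtbVII, which like Chinmo has a BTB domain, had 97.5, 98.5, 96.4 and 96.7, with the centre 61 bp inside Usp5.

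Spps, a zinc finger protein of Polycomb response elements, and CG13609 had 98.5, 99.3, 94.5 and 95.8. PRL-1, a phosphatase, and EndoGI, an inhibitor of endonuclease G, had 93.2, 95.3, 97.5 and 97.1. Of this pair the values of replicates 3 and 4 were the higher ones, and of Spps/CG13609 those of replicates 1 and 2. The remaining members of the group were hts/CalpA, CG12402/Or88a, Vamp7/Sting, Oda/SmD3 and CG30015/nclb, with means of 96.3, 96.2, 96.1, 95.7 and 95.3. Vamp7 is a SNARE of membrane fusion, Sting a sensor of innate immunity, Or88a an odorant receptor and SmD3 a core protein of spliceosomal particles.

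Regions of pairs 1 to 100 bp apart had a median of the mean rank percentile of 53.0, while in the other ranges up to 1000 bp it ran from 45.9 to 56.4. The 6 regions in all 4 libraries with the nearest TSSs were those of CG9921/Dsp1, CG17266/Rpp25, CG9784/Nup153, Arf1/CG11109, Ripalpha/RpL7 and CG14104/Kap-alpha1, with TSSs 12, 17, 26, 27, 30 and 33 bp apart. Their mean rank percentiles were 63.7, 70.1, 81.4, 31.8, 53.0 and 52.8. Nup153, a protein of the nuclear pore, and CG9784 had 81.4, 61.5, 88.7 and 94.3 in replicates 1 to 4. Arf1, a GTPase of the Golgi, and CG11109 had 38.8, 18.2, 31 and 39.1, the lowest of the 6 in mean. CGATA was within 50 bp of the centre in 3 of these 6, against 70.8% of the 226 regions in all 4 libraries.

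Among 15 motifs searched on both strands within 50 bp of each centre, CGATA differed most in percentage points between head-to-head and other promoter regions. It was in 371 of 622 (59.6%, Wilson interval 55.7 to 63.4%), against 29.8% of other promoter regions and 11.4% of regions away from promoters. In windows around the summits of each library, 52.8%, 52.5%, 61.2% and 60.2% of those at head-to-head promoters held it in replicates 1 to 4, against 25.8%, 25.4%, 35.9% and 33.2% at other promoters. No value of one class overlapped those of the other. The mean difference was 26.6 percentage points, positive in 4 of 4 libraries (exact sign-flip p = 0.13, and 0.156 after Benjamini-Hochberg adjustment over the 15 motifs, which is the smallest adjusted value obtained). The adjusted value was the same for 12 motifs whose sign was alike in every library, so the test cannot rank them.

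The full DRE, TATCGATA, which contains CGATA on both strands, was in 19.6% of head-to-head promoter regions, against 8.0% of other promoter regions. It was in 17.5 ± 2.22% of summit windows at head-to-head promoters and in 7.71 ± 2.15% at other promoters (SD, n = 4 libraries). The core of Ohler motif 7, CANCNCTA, was in 17.7% and 7.38% of the regions. GAGAG was rarer at head-to-head promoter regions, in 15.6% against 28.9% of other promoter regions, and its difference was negative in 4 of 4 libraries with a mean of -12.6 points. The TATA word TATAAA was in 7.72% and 5.43%.

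The reference for these words matters. In the 100 bp upstream of all protein-coding TSSs, CGATA was present in 26.1%, TATCGATA in 5.19%, CANCNCTA in 6.21%, GAGAG in 15.3% and TATAAA in 18.1%. GAGAG in head-to-head promoter regions was near this share, while other promoter regions were above it. These stretches are placed by TSSs and the windows of regions by summits, so the 2 are not alike. At the midpoints of head-to-head pairs with no region, CGATA was in 20.1% of windows, GAGAG in 7.88% and TATAAA in 24.5%, and G and C made up 33.1% of the bases. Both classes of bound regions were above the midpoints for GAGAG, and below both references for TATAAA. G and C made up 44.2% of the bases in head-to-head promoter regions and 48.8% in other promoter regions. Their part in the motif shares was not tested.

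Many regions held several copies of CGATA. Exactly 1 match was in 14.3% of head-to-head promoter regions, exactly 2 in 21.9% and 3 or more in 23.5%, against 11.5%, 7.60% and 10.7% of other promoter regions. The matches gathered at the centre. The nearest one lay a median of 11.0 bp from the centre, and within 20 bp in 70.6% of the 371 regions with a match. In 20 bp bins, 26.8% of head-to-head promoter regions had a match in the bin at the centre, against 11.9% of other promoter regions. In the bins 300 bp to the left and right the shares were 4.82% and 2.89%, against 2.46% and 1.94%. Of 509 neighbouring matches within these windows, 135 were 3 bp apart, of which 130 were the 2 strands of a full DRE. The next most frequent spacings were 6 bp with 30 and 7 bp with 21.

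**Figure D4:**
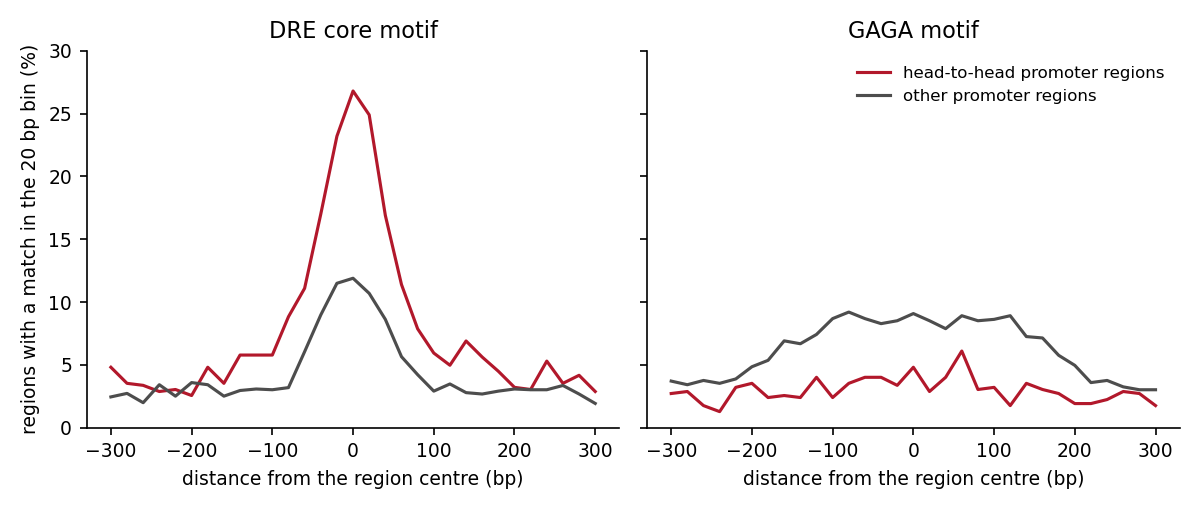
Percent of regions with a match (vertical axis) in 20 bp bins by distance from the region centre in bp (horizontal axis), for the DRE core motif on the left and the GAGA motif on the right, in head-to-head and other promoter regions. The DRE core motif peaks at the centre at 26.8% in head-to-head promoter regions and 11.9% in other promoter regions, and the GAGA motif forms a broad plateau in other promoter regions, at 9.09% at the centre, against 4.82% in head-to-head promoter regions.

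Among all 2080 words of 6 bases, counting a word with its reverse complement, TATCGA had the largest excess at head-to-head promoter regions, in 46.5% against 19.4% of other promoter regions. CGATAG (38.3% against 16.1%) and ATCGAT (38.6% against 17.3%) came next, and all 3 overlap the DRE. The words with the largest deficit were AGAGAG, in 7.56% against 16.4%, and AGAGCG, in 7.72% against 16.2%.

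Within the head-to-head promoter regions, those with CGATA were in more libraries and ranked higher. Of 371 regions with CGATA 43.1% were in all 4 libraries, against 26.3% of 251 without it. Their rank percentile averaged 57.3, 59.6, 60.9 and 63.1 in replicates 1 to 4, against 49.2, 54.9, 51.6 and 48.9 without CGATA. The difference was 9.05 ± 3.90 (SD, n = 4 libraries), positive in 4 of 4, with an exact sign-flip p of 0.13. The position differed as well, with 80.3% of centres between the start sites in regions with CGATA and 39.8% in regions without, and median distances to the nearer TSS of 33.0 and 79.0 bp.

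The word also went with the division of the libraries. Regions with CGATA were listed in 70.9%, 83.0%, 70.9% and 87.9% of cases in replicates 1 to 4, against 66.1%, 80.9%, 55.8% and 76.1% of regions without it. It was present in 39.4% of the 66 head-to-head promoter regions found only in replicates 1 and 2, in 54.7% of the 53 found only in replicates 3 and 4 and in 70.8% of the 226 in all 4. In other promoter regions the corresponding shares were 17.8%, 48.4% and 36.2%. In regions found only in replicates 2 and 4, across that division, the share was 49.1% at head-to-head promoters and 32.5% at other promoters.

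Bound pairs carried CGATA more often than pairs with no region at each range of distance between the start sites. For this comparison the stretch between the TSSs with 50 bp beyond each was searched in every pair with TSSs up to 1000 bp apart, so that bound and unbound pairs were searched alike. CGATA was in 544 of 613 bound pairs (88.7%) and in 1337 of 2054 pairs with no region (65.1%). Where the TSSs were 1 to 200 bp apart the shares were 88.2% and 53.9%, over 200 and up to 400 bp 86.8% and 61.0%, and over 400 and up to 1000 bp 91.4% and 78.0%. A longer stretch holds a word of 5 bases more often by its length alone.

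Taking the peaks of each library alone, CGATA was in 85.0%, 85.4%, 90.0% and 89.7% of pairs with a peak in replicates 1 to 4, against 67.4%, 65.6%, 66.3% and 64.7% of pairs with none. The 2 sets of values did not overlap, and the mean difference was 21.5 ± 3.41 points (SD, n = 4 libraries; exact sign-flip p = 0.13). Read the other way, 28.9% of 1881 pairs with CGATA were bound and 8.78% of 786 pairs without it. Most pairs with the word thus had no region in 2 or more libraries. A missing peak was not read as absent binding, and these shares were not taken with the longer lists.

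Of the other words, 2 were also more frequent in bound pairs. TATCGATA was in 37.4% of bound pairs and 16.9% of pairs with no region, and 39.7% of 577 pairs with it were bound. Over 400 and up to 1000 bp, its mean difference by library was 21.3 points and that of CANCNCTA 15.5 points, against 11.8 points for CGATA. CANCNCTA was in 44.7% and 28.3%. GAGAG was in 30.3% of bound pairs and 31.1% of pairs with no region, with a mean difference of 0.514 ± 2.53 points (n = 4 libraries, exact p = 0.625). TATAAA was in 50.9% and 59.1%, negative in the mean difference at -7.22 ± 1.55 points. That difference was largest up to 200 bp apart (16.3% and 28.5%) and near 0 over 400 bp (82.3% and 82.2%). G and C made up 38.8% of the stretch between the TSSs in bound pairs and 37.5% in pairs with no region.

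**Figure D5:**
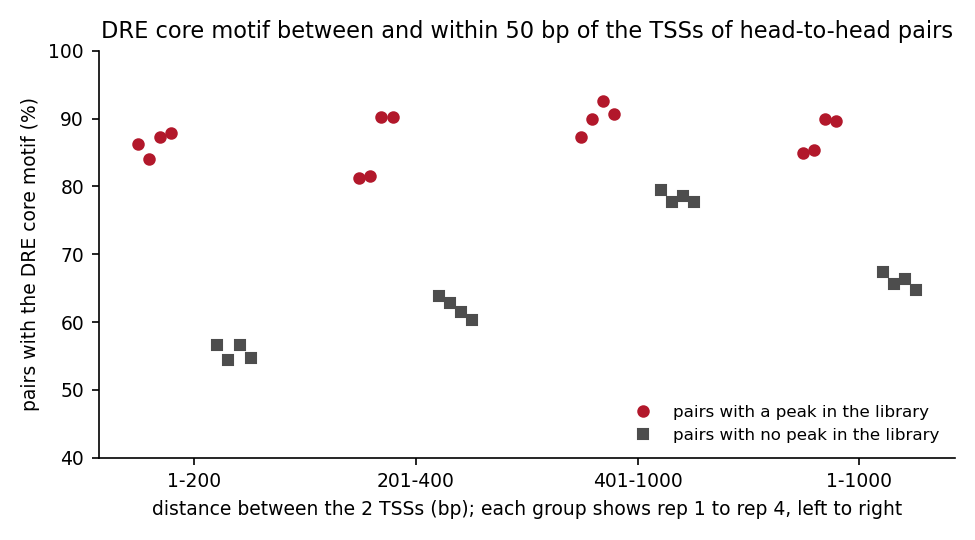
Percent of head-to-head pairs with the DRE core motif (vertical axis, starting at 40) for pairs with a peak (circles) and with no peak (squares) in each library, by the distance between the TSSs in bp (horizontal axis). Circles lie above squares in every range and library, and the gap is narrowest over 400 bp.

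The functions of the bound genes were described with 16 lists, each restricted to genes in head-to-head pairs with TSSs up to 1000 bp apart. The share of such genes in a bound pair is to be read against 23.2% over all genes of such pairs. Vesicle traffic, here the Rab GTPases and the genes named as Vps, Sec, coat, AP, Syx or Snap proteins, had the highest share, 30 of 63 genes (47.6%). Next came signalling pathway genes with 19 of 43 (44.2%), spliceosome proteins with 10 of 32 (31.2%) and translation factors with 8 of 27 (29.6%). In head-to-head pairs or not, 36 of all 104 vesicle traffic genes (34.6%) had some region within 1000 bp of a TSS. So did 49 of all 98 signalling genes, 10 of 36 spliceosome genes (27.8%) and 17 of 53 translation factor genes (32.1%). Over all protein-coding genes this share was 18.8%. The high share of signalling genes was thus not particular to head-to-head pairs. Gene lists were not tested, and genes of 1 pair share their region.

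Genes of vesicle traffic were bound across a wide range of ranks. Within this list, the pair next to TrpRS/Vps16A in mean rank was that of Sec61alpha, the channel of the endoplasmic reticulum, and Daxx, with rank percentiles of 92.0, 98.2, 90.7 and 98.4 in replicates 1 to 4. Rab30, a GTPase of the Golgi, and Caper had 94.0, 96.8, 86.2 and 89.2. Over the 30 bound pairs of the list, 40% were in all 4 libraries, the median of the mean rank percentile was 52.1 and 70.0% had CGATA.

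Among signalling genes, sax, a receptor of BMP ligands, shares its promoter with Nop17l, and that region was listed only in replicates 2 and 4, at 93.3 and 83.6. The pair of hop, the Janus kinase of the fly, and Tim8 had 80.3, 55.4, 79.7 and 88.5. Ptp61F, a phosphatase that limits JAK/STAT signalling, and CG9166 had 28.5, 77.5, 91.3 and 95, which is low in replicate 1 and high in the other three. Of the 20 bound pairs of this list, 35.0% were in all 4 libraries and 50% had CGATA.

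The machinery of translation was near the background. Of cytosolic ribosomal proteins 14 of 53 (26.4%) were in a bound pair, of mitochondrial ribosomal proteins 14 of 59 (23.7%) and of aminoacyl-tRNA synthetases 6 of 24 (25%). RpL32, of the large subunit, and CG7943 had 88.0, 94.8, 99.0 and 99.4. RpS7/Anp was listed only in replicates 3 and 4, at 79.7 and 83.9, and so was Tudor-SN/mRpL17, at 83.8 and 93.4. RpS28a/Axn, which pairs a ribosomal gene with a scaffold of the Wnt pathway, had 83.5, 93.0, 33.1 and 80.6, with replicate 3 the low one. That region had 2 pairs in reach, and its pair of smallest summed distance was Mgat2/Axn. Its centre lay inside Mgat2, 669 bp upstream of the Axn TSS. The pair of eIF2gamma, which delivers the initiator tRNA, and Set had 71.7, 90.8, 82.1 and 77.8.

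Other lists of broadly used genes were also near or below the background. Basal transcription and Mediator had 12 of 57 (21.1%), cell cycle and DNA replication 10 of 45 (22.2%), proteasome 5 of 26 (19.2%) and respiratory chain 8 of 45 (17.8%). Rpn6, of the proteasome lid, and ave had 76.5, 90.7, 96.8 and 97.8. ATPsynF, of the ATP synthase, and CG3548 had 99.1, 98.1, 91.0 and 92.4. The region of SmE/CG34132, whose stretch is printed above, had 86.2, 68.2, 64.5 and 93.1.

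The remaining lists had few genes in head-to-head pairs. Chromatin and promoter architecture factors had 1 of 21 (4.76%), Caf1-55, a histone chaperone, whose region with CG31344 was listed in replicates 1 and 4 at 40 and 48.7. Cuticle proteins had 0 of 13, which allows a share of up to 23.1%, about the share over all genes of such pairs. Odorant and taste receptors had 1 of 26 (3.85%), Ir60e with CG13585, and cytochrome P450 enzymes 3 of 13 (23.1%). Of all 40 genes matched in the chromatin list, in head-to-head pairs or not, 27.5% had some region within 1000 bp of a TSS. BTB domain factors had only 4 genes in head-to-head pairs, and 1 of these, BtbVII, was bound.

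In 42 head-to-head pairs both genes belonged to a list, and 9 of these (21.4%) were bound, near the 23.0% of all pairs up to 1000 bp apart. They were TrpRS/Vps16A, GluProRS/AP-1sigma, RpS28a/Axn, ATPsynCF6/Sec13, Cyp6a9/Cyp6a20, eIF2Balpha/Vps13B, Vps39/eIF1A, Taf10b/Taf10 and Sec3/COX7B. Vesicle traffic genes were in 6 of the 9. Their share among all 42 pairs is not given here, and this list had the most genes in head-to-head pairs, 63. Only Cyp6a9/Cyp6a20, both cytochrome P450 enzymes, and Taf10b/Taf10, both subunits of the general factor TFIID, joined genes of 1 list. Cyp6a9/Cyp6a20 had rank percentiles of 59.3, 80.0, 43.4 and 48.4 and no CGATA, and Taf10b/Taf10 had 26.8, 41.5 and 61.6 in replicates 1, 2 and 4, with 2 matches. Cyp6a9 and Cyp6a20 are members of a gene family, and reads that map to more than 1 copy could be placed at either, in ways the sources used here do not give.

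In the lists deposited for the whole series, head-to-head promoters made up a smaller share than in the joined regions. They held 899 of 5841 peaks (15.4%) of the list named conservative and 1825 of 13848 (13.2%) of the longest. Of the 622 regions 82.2% had a summit of the conservative list within 100 bp and 96.8% one of the longest list, against 89.2% and 97.3% of other promoter regions. The share in the conservative list went with the number of libraries, 97.8% of head-to-head promoter regions in all 4, 80.5% of those in 3 and 68.1% of those in 2.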

How the data were processed

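Peaks were called and passed through an analysis of the irreproducible discovery rate by the authors before deposit, per the file names and labels, with positions on dm6; caller and aligner are not given in the sources read. For each library the authors deposited a thresholded and a longer ranked list. The deposited signal value of a peak has no stated unit and was only ranked within its list; the deposited offset of the summit, another column, gave its position. Summits were joined, and TSSs were those of protein-coding transcripts in Ensembl release 115 (BDGP 6.54); sequence is the RefSeq Release 6 assembly, the same build. Motifs were searched on both strands within 50 bp of a centre. Comparisons use the 4 libraries as n in an exact two-sided sign-flip permutation test, whose p cannot fall below 0.13 (1 in 8). Python 3.11.15, numpy 2.4.6, scipy 1.17.1 and matplotlib 3.10.9 were used, and joining, pairing and motif search were tested on simulated data. Regions, gene lists, motifs and comparisons were chosen with earlier results of these data known. Named pairs are the 15 highest by mean rank and the 6 closest among regions in all 4 libraries, up to 3 pairs per gene list, pairs with both genes in a list and 3 regions on each side of the 1000 bp limit. Some symbols of 4 lists matched no gene and were left out. The replicates are biological per the labels. The p-values rest on the differences within these libraries and are smallest when all 4 have the same sign, whatever their spread. The libraries share many regions, 226 of the 622 being in all 4, so their motif shares come in part from the same sequences. Alternatives changed the libraries required, both windows, the lists and the motif window, and left out each library.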

Additional observations from a re-analysis of the deposited data

Results flagged for a closer look

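In 5 results 1 of the 4 libraries lay far from the others, which chance gives in about 1 of 20 groups. Of 46 named gene pairs examined, some of which share a region, 3 stood out. The region of CG12402/Or88a had a rank percentile of 98.1 in replicate 2, against 95.5 to 95.6 in the others. The region of MED7, a Mediator subunit, and Cap-H2, of condensin, had 8.30 in replicate 1, against 76.3 to 89.0. The region of CycB/stl had 68.5 in replicate 4, against 75.3 to 76.6. The mean rank percentile of head-to-head promoter regions was 54.1 in replicate 1, against 57.6 to 57.8. The difference in CGATA between summits at head-to-head and other promoters was 25.3 percentage points in replicate 3, the smallest of the 4, and positive in each.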

How the results depend on the processing

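The 4 libraries form 1 group, so there was no second group to pair them to. The sign-flip tests compare classes of regions within each library and are paired by library in that sense. The number of head-to-head promoter regions, 622, became 390 and 226 with 3 and 4 libraries required, 392 with a TSS window of 500 bp, 334 with the upper 50% of each list and 1825 in the longest list. The 628 gene pairs became 247 with 4 libraries, 979 with a window of 2000 bp, 361 with the upper 50% and 1580 in the longest list. The 64.0% of centres between the TSSs became 75.3% with 500 bp, 57.1% with no other TSS between, and 52.8% and 52.2% in the conservative and longest lists. The difference in regions listed per library, 0.402 points, was -0.271 with the upper 50% and -0.356 without replicate 3. The difference in genes, 9.86 points, was 0.546 when a summit counted only for the nearest gene. The cause of these changes was not tested. Leaving out 1 library gave 482 to 541 regions, 502 to 550 pairs, 64.0 to 68.0% of centres between the TSSs, 9.03 to 10.8 points in genes, -2.22 to -0.475 in rank percentile, -0.356 to 1.78 points in regions listed and 12 to 13 motifs of like sign in all libraries. The CGATA difference ran between 20.5 and 31.7 points over all alternatives. With motifs searched within 100 bp of a summit in place of 50 bp, the difference of TATAAA was 7.10 in place of 2.31 points, that of GAGAG -20.2 in place of -12.6 and that of CANCNCTA 14.8 in place of 9.85. Motif differences were taken from single summits, so the join window and the libraries required could not enter; in joined regions, added after the data were seen, that of CGATA was 29.8 points, and 34.6 with 4 libraries required.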
